A study of Drosophila melanogaster with 6 samples.

Results

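The comparison described here sets brains in which E347 neurons expressed dominant-negative shibire against control brains, across all genes of 1 deposited differential expression table. Members were the transcripts with test status OK in the authors' table of control against ablation, 11676 of 21081 transcripts, which belong to 8512 of 14012 genes. Transcript values were added up to gene sums by CG number, the older fly gene number in the transcript names. Of the 8512 genes, 5583 had a gene sum of at least 10 FPKM (fragments per kilobase of transcript, scaled to the size of the library) in both groups, and the results below rest on these genes. Another 673 genes reached 10 FPKM in ablation only, 316 in control only and 1940 in neither group.

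RNA was sequenced from pooled brains of wandering larvae, the stage just before pupariation, raised at 25 °C on a diet with 35 g of yeast in each liter. Of the 6 samples of the series, 4 are used here. Control larvae carried w and E347-GAL4 over w1118, with no transgene to drive, and were sampled as pools of 100 and 86 brains. Ablation larvae carried w and E347-GAL4 on 1 X chromosome, yw with UAS-ShiDN on the other and a further heterozygous UAS-ShiDN insertion on the second chromosome. They were sampled as pools of 100 and 91 brains. The groups therefore shared the driver and differed in the other X chromosome as well as in the transgenes, so an effect of the transgene cannot be told apart from one of the strain background. The labels do not name the sex of the larvae, although the genotypes are written with a pair of X chromosomes, as in females. They do not say which neurons the driver reaches, and whole brains were extracted. Fewer cells of a type and less RNA per cell cannot be told apart in such pools.

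Shibire is the fly dynamin, a GTPase that pinches endocytic vesicles off the plasma membrane. Synaptic terminals need it to retrieve vesicle membrane after transmitter release, and a dominant-negative form blocks that step and so silences transmission. Dynamin also serves receptor uptake in other cells, including the uptake of ligands that start Notch signalling. A GAL4 driver confines the transgene to the cells in which it is active, here a set of neurons within a brain that also holds neuroblasts, glia and optic lobe precursors.

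Each gene has 1 value per group, the group value of Cuffdiff, the authors' test program. No spread between the pools of a group can be given, and the sequencing depth is unknown. The only measures of error are the deposited p and q and a standard error obtained by dividing the deposited log2 change by the deposited test statistic. The deposited p does not follow a normal distribution of that statistic, so the standard error and the p of a transcript can differ in strength. This implied standard error had a median of 0.81 on the log2 scale over 5559 leading transcripts, the leading transcript being the one with the highest value in either group. It was 1.10 for leading transcripts at a mean level of 10 to 20 FPKM and 0.54 for those at 100 FPKM and above. The labels do not say whether the pools were raised separately, so the p-values, which rest on the error model of Cuffdiff, apply to these pools only.

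Most genes well above 0 had similar values in both groups. Of the 5583 genes, 4202 (75.3%) lay within 1.5-fold. The median log2 ratio of ablation over control was -0.01, the quartiles were -0.32 and 0.33, and 5% of genes lay below -0.84 and 5% above 0.95. Values were over 1.5-fold higher in ablation for 758 genes (13.6%) and over 1.5-fold lower for 623 (11.2%). For more than 2-fold the counts were 250 and 176. In the authors' deposited table the leading transcript had an unadjusted p under 0.05 in 93 genes (1.67%), of which 35 (0.627%) had a higher and 58 (1.04%) a lower gene sum in ablation. Evenly spread p-values would give 5%. Of all 11676 transcripts, 18 (0.154%) had q of at most 0.05 in the authors' deposited table and 239 (2.05%) had p under 0.05, but 0 of the 18 were at 10 FPKM or more in both groups. None of the genes below therefore passes correction on the strength of a transcript well expressed in both groups, and differences are given as values.

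**Figure D1:**
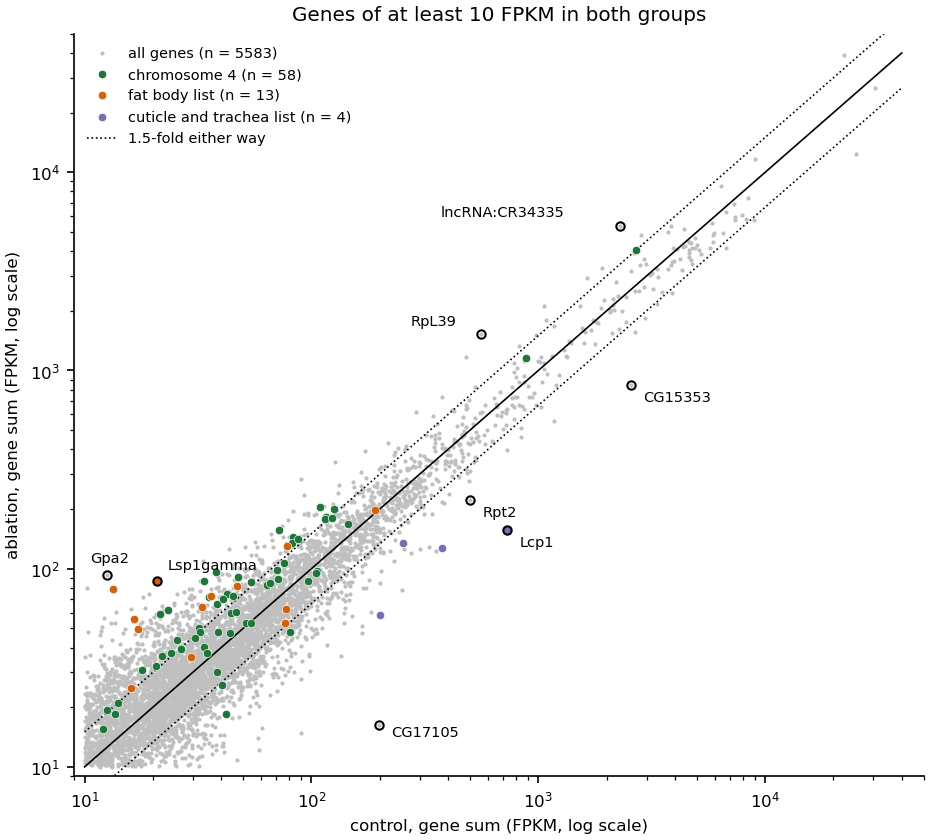
Gene sums in control (x axis) and ablation (y axis) in FPKM on log scales, 1 point for each of 5583 genes of at least 10 FPKM in both groups. The solid line marks equal values and the dotted lines 1.5-fold either way. Genes of chromosome 4 (green) lie mostly above the line, fat body genes (orange) lie above it in 11 of 13 cases, and all 4 cuticle genes (purple) lie below it.

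Cell type markers of brain tissue were present in both groups. The neuronal RNA-binding gene elav had 97.2 FPKM in control brains and 113 FPKM in ablation brains over all its transcripts, the neuroblast factor dpn 32.5 and 33.8 FPKM, and the glial factor repo 44.8 and 30.5 FPKM. The other glial markers had the opposite direction to repo, moody at 9.01 and 12.9 FPKM and Gs2 at 299 and 345 FPKM. Markers of haemocytes and muscle were uneven. Hml, a haemocyte matrix protein, had 2.61 and 1.25 FPKM, and Pxn, a peroxidasin, 9.75 and 7.53 FPKM. The haemocyte marker NimC1 had the other direction, at 0.348 and 1.28 FPKM. The muscle myosin gene Mhc had 0.396 and 0.661 FPKM, but the muscle actin gene Act57B had 29.4 and 39.8 FPKM and the muscle LIM protein gene Mlp60A 32.4 and 7.11 FPKM. The muscle marker Mlc2 had 10.3 and 14.8 FPKM. Genes of the midgut digestion list summed to 37.5 FPKM in control brains and 1913 FPKM in ablation brains over 34 genes, although 0 of them reached 10 FPKM in both groups. Npc2f, a sterol-binding family member and no digestive enzyme, had 24.5 and 0.743 FPKM, and without it the other 33 genes summed to 12.99 and 1912 FPKM. Transcripts of shi, the dynamin gene, summed to 69.5 FPKM in control brains and 74.4 FPKM in ablation brains, while the tested ones alone, without RC and RD of status LOWDATA, summed to 15.9 and 39.5 FPKM. The table does not separate transgene from endogenous shi RNA. White, the eye pigment transporter gene altered by the w allele of both groups, had 3.55 and 2.83 FPKM.

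By position, values were shifted upward in ablation on chromosome 4, the small and largely heterochromatic fly autosome. Of its 58 genes of at least 10 FPKM in both groups, 50 had higher values in ablation, where 49.5% of all 5583 genes did. Their median log2 ratio was 0.58, with quartiles of 0.33 and 0.76. Over 1.5-fold higher values were seen for 28 of the 58 (48.3%, against 13.6% of all genes) and over 1.5-fold lower values for 3 (5.17%, against 11.2%). The 5 large arms together, with 5491 genes, had a median of -0.01, from -0.05 on 3R to 0.02 on 2R. Leading transcripts of 3 chromosome 4 genes had p under 0.05 in the authors' deposited table (5.17%, against 1.67% of all genes), and 0 passed at q of at most 0.05.

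Genes on the unplaced heterochromatin scaffolds of the dm3 assembly (the Het and U scaffolds) had a similar shift. Of 34 such genes, 32 had higher values in ablation, the median log2 ratio was 0.56, and 16 (47.1%) were over 1.5-fold higher while 0 were over 1.5-fold lower. By the authors' deposited table, 0 of their leading transcripts had p under 0.05. Genes were assigned by the scaffold of their locus in the table. No test was made across genes of a chromosome, since genes share the same 4 pools.

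**Figure D2:**
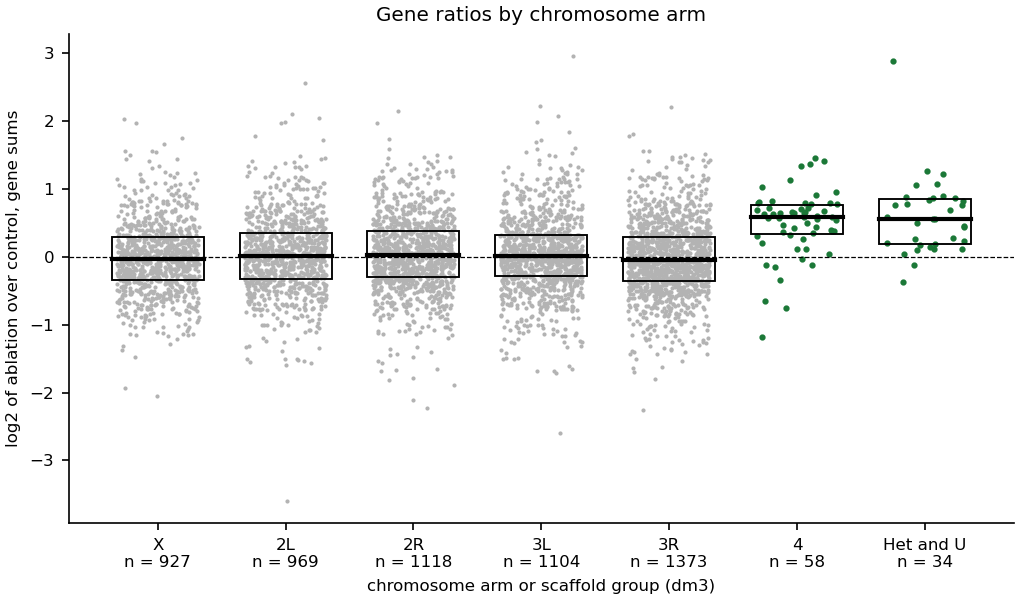
Log2 ratio of ablation over control (y axis) for each gene of at least 10 FPKM in both groups, by chromosome arm or scaffold group of dm3 (x axis). Thick lines are medians and boxes the quartiles. The 5 large arms centre near 0, while chromosome 4 and the Het and U scaffolds centre at 0.58 and 0.56.

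The chromosome 4 genes named here were chosen after their values were seen. Neuronal and synaptic genes were among them. CaMKII, a calcium-dependent kinase of synaptic plasticity, had 114 FPKM in control brains and 178 FPKM in ablation brains. PMCA, the plasma membrane calcium pump, had 116 and 182 FPKM. The vesicle priming gene unc-13 had 38.2 and 66.4 FPKM, and Cadps, which primes dense-core vesicles, had 42.4 and 74.5 FPKM. Gat, the GABA transporter of glia, had 33.5 and 86.7 FPKM. All 5 were higher in ablation, by log2 ratios between 0.64 and 1.37.

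Chromosome 4 genes with other roles shared the direction. Slip1, whose product binds the Slowpoke potassium channel, had 23.3 FPKM in control brains and 61.6 FPKM in ablation brains, a log2 ratio of 1.41 (implied standard error 0.68; the authors' deposited table gives p = 0.0115). PIP4K, a phosphoinositide kinase, had 71.9 and 157.5 FPKM, a log2 ratio of 1.13 (0.66; the authors' deposited table gives p = 0.0198). The lipoprotein gene apolpp had 47.1 and 82.1 FPKM (the authors' deposited table gives p = 0.0395). The Polycomb-group DNA-binding gene pho had 37.8 and 95.7 FPKM, and RpS3A, a ribosomal protein gene, had 2696 and 4068 FPKM. In RpS3A, transcript RB had 442 FPKM in control and was listed at 0 in ablation (q = 0.0324 in the authors' deposited table), against the direction of the gene sum. Rad23, ATPsynbeta and the Hedgehog effector ci were higher by 0.55, 0.39 and 0.58 on the log2 scale. The shift therefore included abundant housekeeping genes as well as neuronal genes.

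Of the 8 chromosome 4 genes with lower values, 4 were well below the rest. CG31997 had 42.0 FPKM in control brains and 18.5 FPKM in ablation brains. The Pax6 genes toy and ey, which pattern eye and brain, had 80.6 and 47.7 FPKM, and 40.4 and 25.8 FPKM. The transcription factor gene Sox102F had 38.3 and 30.2 FPKM. The other 4 had log2 ratios between -0.16 and -0.03.

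On the heterochromatin scaffolds, Gpa2 and Gpb5, the subunits of a glycoprotein hormone, were both higher. Gpa2 had 12.6 and 92.4 FPKM, and Gpb5 was higher by 0.87 on the log2 scale. Gpa2 is the member with the largest ratio there (log2 2.88, implied standard error 1.14; the authors' deposited table gives p = 0.148). The MAP kinase gene rl had 20.3 FPKM in control brains and 42.7 FPKM in ablation brains, and the calcium-binding protein gene Alg-2 had 67.1 and 139 FPKM. RpL15, a ribosomal protein gene, had 2835 and 4833 FPKM. The only lower genes were su(f), an RNA 3′ end processing factor, at 59.8 and 46.2 FPKM, and CG41128 at 253 and 232 FPKM.

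The direction held in the subsets that were looked at, which were chosen after seeing the data. Of 19 chromosome 4 genes with 1 transcript, 16 were higher (median log2 ratio 0.54), and of 12 such genes on the scaffolds 11 were (0.52). Chromosome 4 genes with a locus over 10 kb had a median of 0.61 and shorter ones 0.57. Genes with 10 to 50 FPKM in control had a median of 0.63, and those above 0.48. On the large arms the same level classes had medians of 0.06 and -0.12. Genes next to the centromere on the assembled arms differed by arm. Within 1 Mb of the centromere-side end, 13 of 13 genes of 2R were higher (median 0.47), 13 of 15 of 2L (0.39) and 6 of 6 of 3L (0.52), while 9 of 15 of X (0.02) and 19 of 53 of 3R (-0.12) were. Beyond 2 Mb the medians of the 5 arms ran from -0.04 to 0.01. Base composition was not examined, and its part in the shift was not tested.

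Among the lists for other tissues, and at 10 FPKM or more in both groups, fat body genes had the highest median ratio. The larval fat body makes the serum storage proteins that fill the haemolymph of wandering larvae. Lsp1gamma, a storage hexamerin, had 20.8 FPKM in control brains and 87.1 FPKM in ablation brains, a log2 ratio of 2.07 (implied standard error 0.70; the authors' deposited table gives p = 0.0003 with q = 0.140). Lsp1alpha had 16.5 and 55.5 FPKM, and Lsp1beta 36.2 and 72.6 FPKM. Fbp1, the receptor through which storage proteins re-enter the fat body, had 17.2 and 49.4 FPKM, and Fbp2 had 13.3 and 78.6 FPKM. Of 13 genes of the list at 10 FPKM in both groups, 11 were higher and 2 lower, with a median log2 ratio of 0.80 against -0.01 over all genes. In the authors' deposited table, 6 of the 13 had p under 0.05, all higher, where 0.627% of all genes did. The lipid synthesis genes FASN1 and Lpin were the lower ones, with log2 ratios of -0.53 and -0.32. Desat1, counted among the higher ones, was nearly level at 191 and 198 FPKM. The median is the value of apolpp, one of the chromosome 4 genes given above. The brain's own share of these RNAs was not tested, and the midgut sum given above had the same direction.

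A cluster of 4 larval cuticle genes had lower values in ablation. Lcp1, a cuticle protein of the larval epidermis, had 729 FPKM in control brains and 156 FPKM in ablation brains, a log2 ratio of -2.22 (implied standard error 0.47; the authors' deposited table gives p = 0.00045 with q = 0.181). Lcp4 had 375 and 127 FPKM, Lcp2 200.3 and 58.1 FPKM, and Lcp3 254 and 134 FPKM. All 4 genes of the list that reached 10 FPKM in both groups were over 1.5-fold lower, and 3 had p under 0.05 in the authors' deposited table, where 1.04% of all genes had p under 0.05 with a lower sum. The 4 lie side by side on 2R in dm3, Lcp1 from 4318139 to 4318737 and Lcp4 from 4325162 to 4325908. These genes are near relatives, so reads may have been shared among them, and they do not count as 4 independent cases. Of the other 36 genes of the cuticle and trachea list, 11 were tested and below 10 FPKM in at least 1 group, and of these 6 were higher in ablation and 5 lower. Among the higher ones, Cpr51A, a cuticle protein gene, had 1.39 and 14.4 FPKM, and Gasp, a tracheal chitin-binding protein gene, 3.02 and 10.2 FPKM. Among the lower ones, Cpr49Ac had 14.8 and 3.77 FPKM, and its transcript RA had q = 0.0324 in the authors' deposited table. Lower values were therefore not shared by the list as a whole. Outside the list, the cuticle protein gene Cpr60D had 47.0 and 10.8 FPKM.

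Among all 5583 genes, those with the smallest leading-transcript p included several of high level. CG15353, a short gene known by its CG number alone, had 2560 FPKM in control brains and 846 FPKM in ablation brains, a log2 ratio of -1.60 (implied standard error 0.27; the authors' deposited table gives p = 0.0002 with q = 0.106). It lies on 2L from 2006754 to 2007193 in dm3. The noncoding lncRNA:CR34335, on X from 3439875 to 3440160, had 2290 and 5385 FPKM, a log2 ratio of 1.23 (0.18; the authors' deposited table gives p = 0.00325). Rpt2, an ATPase of the proteasome cap, had 498 and 221 FPKM, a log2 ratio of -1.17 (0.55; the authors' deposited table gives p = 0.0038). Mdr65, the drug transporter of the blood-brain barrier, had 29.7 and 65.3 FPKM, a log2 ratio of 1.14 (0.57; the authors' deposited table gives p = 0.0084).

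Cka, a scaffold of the STRIPAK phosphatase complex and of JNK signalling, had gene sums of 117 FPKM in control brains and 61.3 FPKM in ablation brains. Its leading transcript had p = 0.0013 in the authors' deposited table. Nipped-A, a large subunit of histone acetyltransferase complexes, had 16.3 and 36.2 FPKM (the authors' deposited table gives p = 0.010). It lies on the centromere side of 2R, from 1065506 to 1138553 in dm3. The chromatin remodelling ATPase gene brm is the exception among the 12 genes with the smallest p. Its gene sum was nearly level at 67.7 and 80.5 FPKM, and its p of 0.0114 in the authors' deposited table belongs to a transcript described further on.

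**Figure D3:**
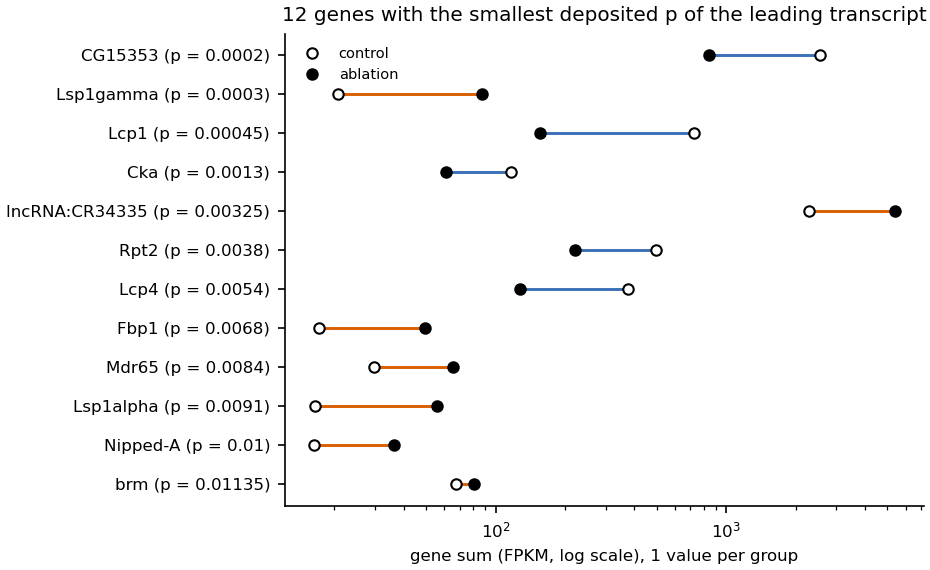
Gene sums in FPKM (log scale) in control (open circles) and ablation (filled circles) for the 12 genes whose leading transcript had the smallest deposited p, given beside each name. Lines are orange where ablation is higher and blue where it is lower. CG15353 and Lcp1 show wide gaps at high level, while brm hardly differs as a sum.

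The largest ratios belonged mostly to short or weakly expressed genes. The 15 genes with the highest ratios had log2 ratios of 1.96 and more, and 14 of them started below 20 FPKM in control. A ranking by ratio above a minimum of 10 FPKM favours low values in control. The share of all genes below 20 FPKM is not given. Of these 15 loci, 8 span less than 2 kb. CG11279 had 10.3 FPKM in control brains and 79.7 FPKM in ablation brains, and the mitochondrial ribosomal protein gene mRpL34 had 13.8 and 60.7 FPKM. Of the 15, 3 had p under 0.05 in the authors' deposited table (Fbp2, Lsp1gamma and CG15784). Over all genes 0.627% had such a p with a higher sum, but a ranking by ratio by itself favours small p. The next gene outside the 15 had a log2 ratio of 1.84. The 15 genes with the lowest ratios had log2 ratios of -1.69 and lower, and 12 of their loci span less than 2 kb, as 24.7% of all loci do. In ablation 7 of these 15 were below 20 FPKM. CG17105 had 198 FPKM in control brains and 16.3 FPKM in ablation brains, and ubl, a ubiquitin-like protein gene, had 250.0 and 77.7 FPKM. Of these 15, 5 had p under 0.05 in the authors' deposited table (CG32234, Lcp1, Lcp2, ImpL2 and CG14687), where 1.04% of all genes did with a lower sum. The next gene outside had a log2 ratio of -1.69 too. Ratios spread more for short loci: their SD over genes was 0.80 on the log2 scale for the 410 genes of up to 1 kb and 0.47 for the 1155 genes over 10 kb.

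Neuropeptide genes encode precursors of secreted signals. Of 29 such genes at 10 FPKM in both groups, 20 were higher in ablation, where 49.5% of all genes were, and 9 lower, with a median log2 ratio of 0.30, or 0.18 without the 2 on heterochromatin scaffolds. None had p under 0.05 in the authors' deposited table, the smallest being 0.059 for Capa, a diuretic peptide precursor at 73.8 and 163 FPKM. NPF, the fly neuropeptide F of feeding control, had 19.4 FPKM in control brains and 54.8 FPKM in ablation brains, and the drosulfakinin gene Dsk, a satiety signal, had 15.5 and 35.0 FPKM. The insulin-like peptide genes of the brain's insulin-producing cells had no common direction. Ilp5 had 300 FPKM in control brains and 126 FPKM in ablation brains (the authors' deposited table gives p = 0.160), Ilp2 had 326 and 298 FPKM, and Ilp3 had 35.8 and 53.6 FPKM. Of the other 16 peptide genes, 10 were tested and below 10 FPKM in at least 1 group and 6 were not tested.

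**Figure D4:**
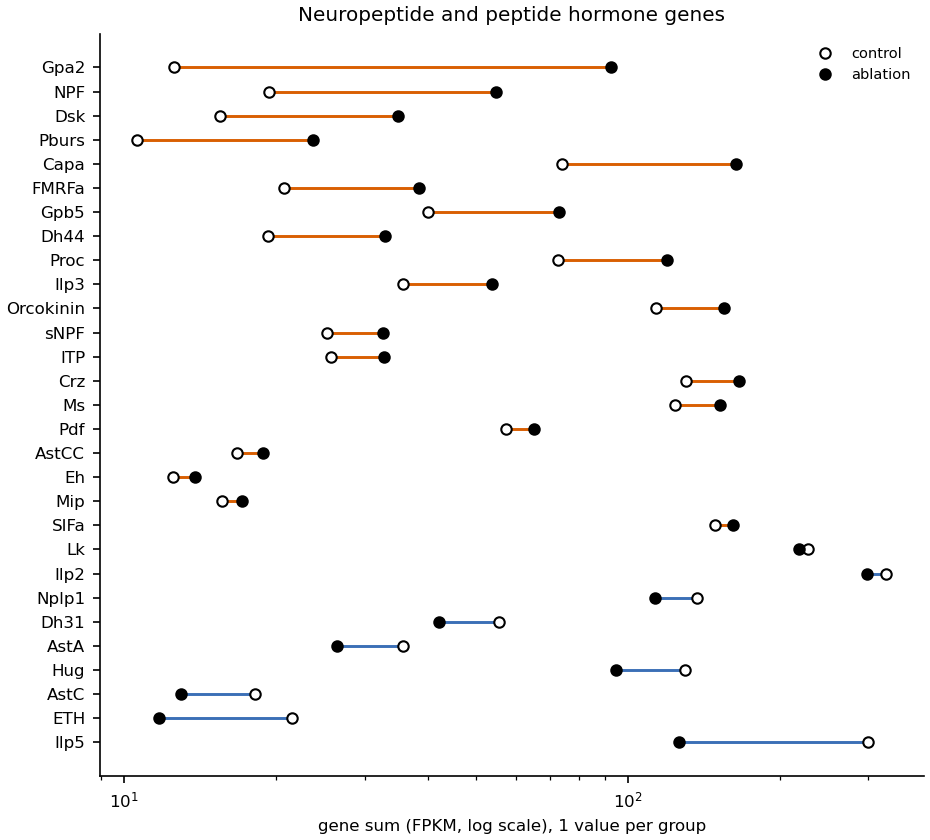
Gene sums in FPKM (log scale) of the 29 neuropeptide and peptide hormone genes of at least 10 FPKM in both groups, in control (open circles) and ablation (filled circles), ordered by log2 ratio. The upper 20 genes are higher in ablation (orange lines) and the lower 9 are lower (blue lines), with Gpa2 at 12.6 and 92.4 FPKM and Ilp5 at 300 and 126 FPKM at the ends.

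Genes of the synaptic vesicle cycle are described here by step. Of 19 vesicle release genes 14 had higher values, where 49.5% of all genes did, with a median log2 ratio of 0.29, or 0.27 without unc-13 on chromosome 4. Among them were unc-13, cpx, the complexin fusion clamp, at 81.0 and 129 FPKM, and Syngr, a vesicle membrane protein, at 20.4 and 32.2 FPKM. Rop, the Sec1/Munc18 partner of syntaxin, had the opposite direction, at 125 and 75.8 FPKM. Of 19 genes that work with dynamin in endocytosis 15 had lower values, where 50.5% of all genes did, with a median of -0.33. The adaptor gene AP-1-2beta had 106 FPKM in control brains and 69.8 FPKM in ablation brains, and Synj, the synaptojanin that uncoats vesicles, had 22.1 and 14.6 FPKM. In both lists 0 genes had p under 0.05 in the authors' deposited table, and the difference between the lists was not tested. Rab4 and shi were the largest ratios of the second list, but their tested transcripts hold only part of the RNA: over all transcripts Rab4 had 66.8 and 134 FPKM, and the sums of shi are given above.

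Insulin and growth signalling held 2 secreted or downstream regulators with lower values. ImpL2, which binds insulin-like peptides outside cells and limits their action, had 167 FPKM in control brains and 51.1 FPKM in ablation brains. The log2 ratio of these gene sums was -1.71. The leading transcript RC of ImpL2 had 130 and 22.3 FPKM, with an implied standard error of 1.26 and p = 0.0198 in the authors' deposited table. Thor, the translation repressor 4E-BP, whose gene insulin signalling holds down, had 81.0 and 37.5 FPKM (the authors' deposited table gives p = 0.148). The receptor substrate gene chico had 14.1 FPKM in control brains and 25.7 FPKM in ablation brains. The list as a whole was near level, with 8 of 21 genes higher and a median of -0.09.

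Of 6 activity-regulated genes at 10 FPKM in both groups 5 had lower values, where 50.5% of all genes did, with a median of -0.43. The JNK phosphatase gene puc had 62.4 FPKM in control brains and 32.4 FPKM in ablation brains (log2 ratio -0.94, implied standard error 0.58; the authors' deposited table gives p = 0.0310). CrebB, the fly CREB gene, had 56.7 and 28.7 FPKM, and Jra, which encodes Jun, had 94.2 and 59.0 FPKM. Arc1, the activity-regulated Arc homologue, was near level at 44.1 and 39.5 FPKM, and the Fos gene kay was the member of these 6 with a higher value, at 24.4 and 32.6 FPKM. Of the 5 members below 10 FPKM in at least 1 group, 3 were higher: Hr38, an orphan nuclear receptor gene, had 0.252 and 1.37 FPKM, the zinc finger factor gene cbt 4.79 and 18.7 FPKM and CrebA 4.54 and 6.52 FPKM. Several of these genes respond to stress as well as to activity.

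Notch pathway genes split within the Enhancer of split complex, a cluster of Notch target genes on 3R. E(spl)m8-HLH, which encodes a transcriptional repressor, had 276 FPKM in control brains and 120 FPKM in ablation brains (log2 ratio -1.20, implied standard error 0.50; the authors' deposited table gives p = 0.0414). E(spl)mbeta-HLH had 146 and 69.2 FPKM (-1.08 and 0.56; the authors' deposited table gives p = 0.0293), and E(spl)mdelta-HLH had 60.7 and 34.8 FPKM. E(spl)malpha-BFM, a Bearded family member of the complex, had 58.7 and 112 FPKM. The split did not follow the HLH and Bearded families. E(spl)m7-HLH was higher at 55.7 and 84.4 FPKM, and E(spl)mgamma-HLH at 104 and 125 FPKM. E(spl)m4-BFM was lower at 278 and 217 FPKM, and E(spl)m2-BFM at 21.5 and 18.5 FPKM. Over the list 9 of 24 genes were higher and 15 lower, with a median of -0.11.

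Of 32 neuroblast and asymmetric division genes 20 had lower values, where 50.5% of all genes did, with a median of -0.16. Of the neuroblast markers, dpn, as given above, and wor, at 62.6 and 64.2 FPKM, were nearly level. The marker ase was higher at 37.0 and 45.8 FPKM, and mira was slightly lower at 106 and 97.0 FPKM. The ETS factor gene pnt had gene sums of 39.0 FPKM in control brains and 21.8 FPKM in ablation brains. Its leading transcript RB had 25.6 and 6.01 FPKM, with p = 0.0488 in the authors' deposited table. The growth repressor gene brat had gene sums of 193 and 145 FPKM. Its leading transcript RB had 154 and 77.2 FPKM, with p = 0.0386 in the authors' deposited table. Syp, an RNA-binding factor of late neuroblast identity, had 377 and 216 FPKM. Cell cycle and replication genes were near level, with 20 of 44 higher and a median of -0.05, although Caf1-105, a subunit of the chromatin assembly factor, had 39.6 and 14.5 FPKM (the authors' deposited table gives p = 0.0303). Glial genes were split, 11 higher and 15 lower, with a median of -0.11. The trehalose transporter gene Tret1-1 of the blood-brain barrier had 80.9 and 47.6 FPKM, opposite in direction to Mdr65 and Gat.

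The protein-making and protein-degrading machinery had medians near 0 as groups, with single members apart. Proteasome subunits had lower values for 24 of 30 genes, where 50.5% of all genes did, with a median of -0.18. Of them 2 had p under 0.05 with a lower sum in the authors' deposited table, where 1.04% of all genes did, namely Rpt2 and a transcript of Rpn13 whose gene sum was nearly level at 138 and 129 FPKM. Prosbeta3, a core subunit gene, had 479 and 318 FPKM. Cytoplasmic ribosomal protein genes had 25 higher and 46 lower members, where 50.5% of all genes were lower, and a median of -0.07. In some of them the tested transcripts hold a small part of the RNA. RpS9 counts as higher at 18.8 and 47.6 FPKM, but had 5927 and 4503 FPKM over all transcripts. RpL31 was below 10 FPKM over tested transcripts and had 5481 and 3719 FPKM over all. RpL39 had 560.0 FPKM in control brains and 1530 FPKM in ablation brains (log2 ratio 1.45, implied standard error 0.23; the authors' deposited table gives p = 0.0127), and RpL37A had 1647 and 2925 FPKM (the authors' deposited table gives p = 0.0262). Mitochondrial ribosomal protein genes ranged from -1.24 to 2.14 around a median of 0.11, 42 of the 71 being higher, and 0 had p under 0.05 in the authors' deposited table.

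Energy and stress lists did not share 1 direction, though single lists leaned to a side. The glycolysis genes Pgi, PyK, Pfk, Tpi, Gapdh2, Ald1 and Pgk were higher in ablation, by log2 ratios between 0.07 and 0.58. Hex-A, of the same list, was lower at 117 and 67.0 FPKM (the authors' deposited table gives p = 0.0458). Nuclear genes of the respiratory chain were split, 25 higher and 30 lower, with a median of -0.02. ND-23, a complex I subunit gene, had 231 FPKM in control brains and 109 FPKM in ablation brains (the authors' deposited table gives p = 0.0276), and ATPsynO, of the ATP synthase stalk, had 836 and 463 FPKM (the authors' deposited table gives p = 0.0193). Chaperone genes had lower values for 18 of 26, where 50.5% of all genes did, with a median of -0.12, the small heat shock gene Hsp27 having 3875 and 2465 FPKM. MtnA, a metallothionein that binds copper and cadmium, was among the most abundant transcripts, at 25150 FPKM in control brains and 12376 FPKM in ablation brains (log2 ratio -1.02; the authors' deposited table gives p = 0.0641). Of 36 lists with at least 5 genes, 32 had medians within 0.3 of 0 on the log2 scale.

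**Figure D5:**
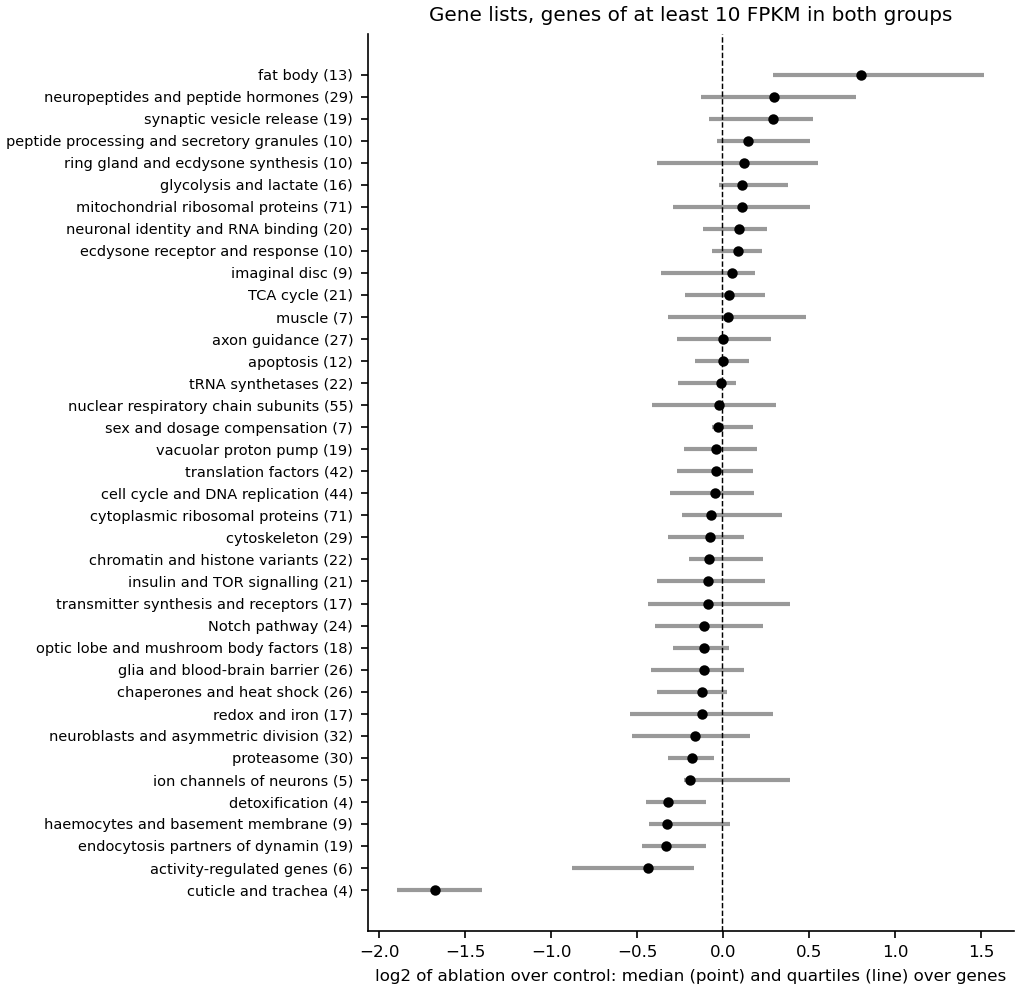
Median (point) and quartiles (line) of the log2 ratio of ablation over control for each list with at least 4 genes of at least 10 FPKM in both groups, the number of genes in parentheses. The dashed line is the median of all 5583 genes. Most medians lie near it, fat body genes (0.80) and the 4 adjacent cuticle genes (-1.67) lie farthest away, and lists share some members.

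Differences of single transcripts often were not differences of the gene. In the authors' deposited table, 121 transcripts with p under 0.05 belong to genes of at least 10 FPKM in both groups. Of these, 101 moved with the gene sum and 20 against it. Where the gene had no other tested transcript, the sum is the transcript itself, so the direction could not differ. The comparison is therefore open only for the 57 transcripts of genes with several tested transcripts, of which 37 moved with the sum and 20 against it. Of 1586 such genes, 493 had a different transcript on top in ablation than in control. In 174 the share of the control's top transcript dropped by over 50 percentage points. That transcript was picked for its high value in control, a choice that by itself favours a drop. The reverse count, for the top transcript in ablation, is not given, and brm, Frl and Pink1 below were picked for large drops.

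For brm, transcript RD held 67.1 FPKM in control brains and 0.00355 FPKM in ablation brains, while RA was listed at 0 and had 46.8 FPKM, and RC had 0.583 and 31.2 FPKM. Frl, a formin gene, had its RNA in RC in control at 38.6 FPKM and in RA and RB in ablation at 19.8 and 21.6 FPKM, with level sums of 38.6 and 41.4 FPKM. Pink1, the mitochondrial quality control kinase gene, had 23.6 FPKM in RD in control brains and 24.0 FPKM in RH in ablation brains. Jupiter, a microtubule-associated protein gene, had 670 and 112 FPKM in its RD transcript, 79.4% of the sum in control and 17.0% in ablation. Its RH transcript was listed at 0 in control and had 280.2 FPKM in ablation, with q = 0.0324 in the authors' deposited table. RH of Jupiter and RB of RpS3A are the 2 transcripts with q of at most 0.05 whose genes reached 10 FPKM in both groups. How reads were divided among overlapping transcripts is an estimate of the authors' program, and its part in these changes was not tested.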

How the data were processed

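Per the submitters' processing notes, the authors aligned and quantified the RNA-seq reads of brain pools with TopHat2, Cufflinks and Cuffdiff against dm3. Their versions and options, and the annotation, are not stated in the sources used here. FPKM values were deposited by the authors, 1 per group and transcript, normalised to transcript length and library size. Beside them the authors deposited a log2 fold change, a test statistic (a score), a p-value and a q-value, from the Cuffdiff comparison of 2 pools a side. Q-values recomputed by the Benjamini-Hochberg method over transcripts of status OK differed by at most 5.07e-07. Tables of the other comparisons were not used.

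Gene sums added the FPKM of transcripts of status OK by CG number. For 78 of 5583 genes these hold under 90% of the FPKM in a group, and 34 genes change direction when all transcripts are added. One of the 15 genes with the lowest ratios, l(3)neo38, is such a gene: 58.5 and 12.2 FPKM over tested transcripts, but 179 and 175 FPKM over all. No pseudocount was used, since both sums are at least 10 FPKM. Symbols came from a reference annotation of another build, by locus tag (12914 genes) or synonym (178), and 920 genes kept CG numbers. Coordinates are those of the table, with starts raised by 1: of 8842 loci, 745 then had the reference gene length and 140 did as written.

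The genes, lists and thresholds were chosen with earlier results of these data known, and some list entries were corrected or dropped after the files were seen. Of 1355 entries in 41 lists, 1330 were found. No list was tested; each is described by counts and its median. Named genes are the 15 largest ratios each way, the 12 smallest p, list members with p under 0.05 or among the 4 largest other ratios, 6 genes with a called transcript or the largest change in transcript share, shi and w. Chromosome 4 and scaffold genes, Capa, Ilp2, Ilp3 and the cell type markers were named outside this rule. So were some members of the glycolysis, Notch pathway, fat body and cytoplasmic ribosomal protein lists. Gene sums and adjustment were tested on simulated data. Alternatives changed q thresholds, minimum FPKM, pseudocount, centring and gene value. Computations used Python 3.11.15, numpy 2.4.6, pandas 2.3.3 and matplotlib 3.10.9.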

Additional observations from a re-analysis of the deposited data

How the results depend on the processing

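The 18 transcripts called at q of at most 0.05 became 20 at 0.1 and 0 at 0.01. The count was 0 among transcripts of at least 10 FPKM in both groups and 10 when p was taken from a normal distribution of the deposited statistic. Transcripts at unadjusted p under 0.05 numbered 85, not 239, at that minimum. Genes past 1.5-fold, 1381 in all, numbered 778 with a minimum of 20 FPKM (391 higher and 387 lower) and 3254 with no minimum and a pseudocount of 1 (2172 higher and 1082 lower). With a minimum of 5 FPKM 1200 were higher. Under the other alternatives these counts stayed within 1.5 times. With no minimum the median of all genes moved to 0.10 on the log2 scale.

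Medians of chromosome 4 ran from 0.47 to 0.63 and those of the Het and U scaffolds from 0.44 to 0.57 over 7 alternatives added after the data were seen. Lists with a median above 0 numbered 13 to 19 of 36. Among the genes named by the rule above 2 (Klp10A and RpS9) changed direction when all transcripts were added. With the control's top transcript in place of the sum 9 did, Gat, Cadps and kay among them, and 28 had no value.

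No paired analysis was possible because the table holds 1 value per group. For the same reason fits without a pool were not run. Depth is not in the table, so counting error is unknown.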
